A study of Mus musculus with 3 samples.

Results

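The 5 genes described here, Agt, Ace, Agtr1a, Enpep and Anpep, belong to the renin-angiotensin system of the brain. They were chosen by name for their roles in that system, with earlier results of these data known. They make up 5 of the 28676 genes in a table of unique molecular identifier (UMI) counts, in which each UMI is meant to stand for 1 captured transcript. The cells came from the medial vestibular nucleus (MVN), the hindbrain nucleus that receives input from the balance organs, of C57BL/6 mice (C57BL/6J in the study's methods) that had been operated on at postnatal day 20 and were sacrificed 1 day later. The 3 libraries were ULI, the ipsilateral MVN of mice that had undergone unilateral labyrinthectomy (UL, surgical destruction of the balance organ, here of the right ear); ULC, the contralateral MVN of the mice with UL; and control, the MVN of sham-operated mice, in which the tympanic bulla was opened and the labyrinth left in place. The labels give no allele, transgene or drug for any group, tissue was pooled from 11 mice with UL and 10 control mice, and each group was 1 library. Both sides of the mice with UL come from 1 set of animals, and no difference between libraries had a replicate check, so no p-value is given and all intervals below are exact 95% intervals that cover counting error only.

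Angiotensinogen, encoded by Agt, is the precursor that renin cuts to angiotensin I. Angiotensin-converting enzyme, encoded by Ace, turns angiotensin I into the active peptide angiotensin II, which signals through the AT1a receptor encoded by Agtr1a. Glutamyl aminopeptidase (Enpep) trims angiotensin II to angiotensin III, and alanyl aminopeptidase (Anpep, also called CD13) shortens that product further. In the brain, astrocytes are known as the main source of angiotensinogen, while ACE is known from choroid plexus and vessel walls, and the aminopeptidases from pericytes, the cells that wrap capillaries.

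After removal of barcodes with under 200 detected genes, 4813 ULI, 4544 ULC and 4607 control cells remained, with a median of 2100 UMIs per cell in ULI, 931 in ULC and 3177 in control. ULC therefore stood apart in depth, and also in make-up, with 1098 choroid plexus-like cells against 262 in ULI and 25 in control. Cell classes were named from marker genes that did not include any renin-angiotensin gene. All 8 astrocyte markers, all 9 pericyte markers and all 8 choroid plexus markers were over 2-fold above the rest of the cells in each library, and so were at least 8 of 9 endothelial markers. Of 8 smooth muscle markers, all were so in ULI and ULC and 7 in control, where 1 was at 0. In smooth muscle-like cells those markers summed to 14858 CPM in ULI, 16168 in ULC and 10458 in control. Pericyte markers summed to 23501, 25298 and 64304 CPM there, so the name of this class is uncertain, most of all in control. Among genes seen in 3 to 20 barcodes of a library, 61.1% of the values above 0 were exactly 1 in ULI, 69.7% in ULC and 68.2% in control, so many sparse genes carried several UMIs in a cell. Counts may therefore include copies of 1 transcript, which was not tested, and intervals that take each UMI as independent are too narrow. For that reason the share of cells with a UMI is given beside the levels of Agt, Ace, Enpep and Anpep in their main classes. It is given beside only some of the other levels. Cells carry running numbers in the table, so barcodes shared by libraries were not counted, and 0 cells had identical counts in 2 libraries.

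The genes lie on 5 chromosomes of the mouse genome (GRCm38, GENCODE annotation). Agt spans positions 124556534 to 124569706 on the minus strand of chromosome 8, Ace 105967945 to 105989964 on the plus strand of chromosome 11, and Agtr1a 30336441 to 30382867 on the plus strand of chromosome 13. Enpep spans 129269175 to 129332720 on the minus strand of chromosome 3 and Anpep 79821803 to 79861059 on the minus strand of chromosome 7. Ace overlaps the antisense gene Gm11651, and Enpep overlaps a processed pseudogene, Gm42628, on the opposite strand. Anpep overlaps Gm44974 and Agtr1a overlaps Gm48161 on the same strand, where strand cannot separate reads. Whether the counting used strand is not given in the sources used here, so reads of the opposite-strand pairs may not have been told apart either.

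The 250 bases before the start site are shown for the 4 genes whose levels could be followed, since the results turn on their levels in 1 kind of cell each and Enpep and Anpep shared theirs. Capitals mark any match, on either strand, to TATAAA (the TATA box), GGGCGG (the GC box), AGGTGT (the core bound by T-box factors) or AGAACA (the core of the glucocorticoid receptor element). Sequences are from RefSeq, build GRCm38.p6, written 5′ to 3′ on the strand of the gene.
Agt, chr8:124569707-124569956, minus strand: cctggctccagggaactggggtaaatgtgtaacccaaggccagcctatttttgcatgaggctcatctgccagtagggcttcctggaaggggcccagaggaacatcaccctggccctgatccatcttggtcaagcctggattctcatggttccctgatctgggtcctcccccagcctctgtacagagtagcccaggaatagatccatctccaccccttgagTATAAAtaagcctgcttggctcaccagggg
Ace, chr11:105967698-105967947, plus strand: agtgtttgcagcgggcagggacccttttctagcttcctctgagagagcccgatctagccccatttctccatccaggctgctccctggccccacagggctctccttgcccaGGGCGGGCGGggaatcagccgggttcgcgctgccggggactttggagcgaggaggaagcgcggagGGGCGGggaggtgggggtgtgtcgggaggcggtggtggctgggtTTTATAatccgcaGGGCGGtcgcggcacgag
Enpep, chr3:129332750-129332999, minus strand: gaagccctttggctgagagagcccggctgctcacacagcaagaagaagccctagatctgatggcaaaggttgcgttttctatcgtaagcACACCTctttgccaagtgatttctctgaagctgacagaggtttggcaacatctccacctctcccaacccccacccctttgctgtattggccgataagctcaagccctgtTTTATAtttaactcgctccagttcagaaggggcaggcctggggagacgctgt
Anpep, chr7:79848211-79848460, minus strand: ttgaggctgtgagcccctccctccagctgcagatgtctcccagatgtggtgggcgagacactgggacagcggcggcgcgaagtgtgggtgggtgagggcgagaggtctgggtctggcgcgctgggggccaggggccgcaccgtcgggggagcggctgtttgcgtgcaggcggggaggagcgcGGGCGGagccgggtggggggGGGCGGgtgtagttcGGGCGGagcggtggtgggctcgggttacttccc

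Agt held 1 TATA box, 30 to 25 bases before its start. Ace held 4 GC boxes, of which 2 overlap, and a TATA box on the reverse strand, and a further Ace start in the table, with its window at chr11:105974939-105975188, held 0 matches and is not shown. Enpep held a reverse-strand TATA box and a reverse-strand T-box core, and Anpep held 3 GC boxes and none of the other motifs. Among 32851 RefSeq promoter windows of the same length, 12.4% held TATAAA, 32.7% GGGCGG, 11.8% AGGTGT and 16.1% AGAACA, and AGAACA was in none of the 4 windows shown. These matches are a description of letters, not of bound sites. The Anpep start in RefSeq lies inside the span of the gene given above. Agtr1a is named only.

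Agt was an astrocyte gene in all 3 libraries, as the map of levels by class shows. Astrocyte-like cells held 315 of the 343 Agt UMIs in ULI (91.8%), 487 of 568 in ULC (85.7%) and 541 of 566 in control (95.6%). The level inside the class was 490 CPM (UMIs of the gene per 1000000 UMIs of the class) in ULI, 1472 CPM in ULC and 675 CPM in control, against 1.68, 6.65 and 0.960 CPM in all other cells of ULI, ULC and control. By summed UMIs, Agt ranked 177th among the genes of the class in ULI, 47th in ULC and 134th in control. Agt did not enter the clustering and was among the 10 leading genes of the astrocyte-like cluster.

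**Figure D1:**
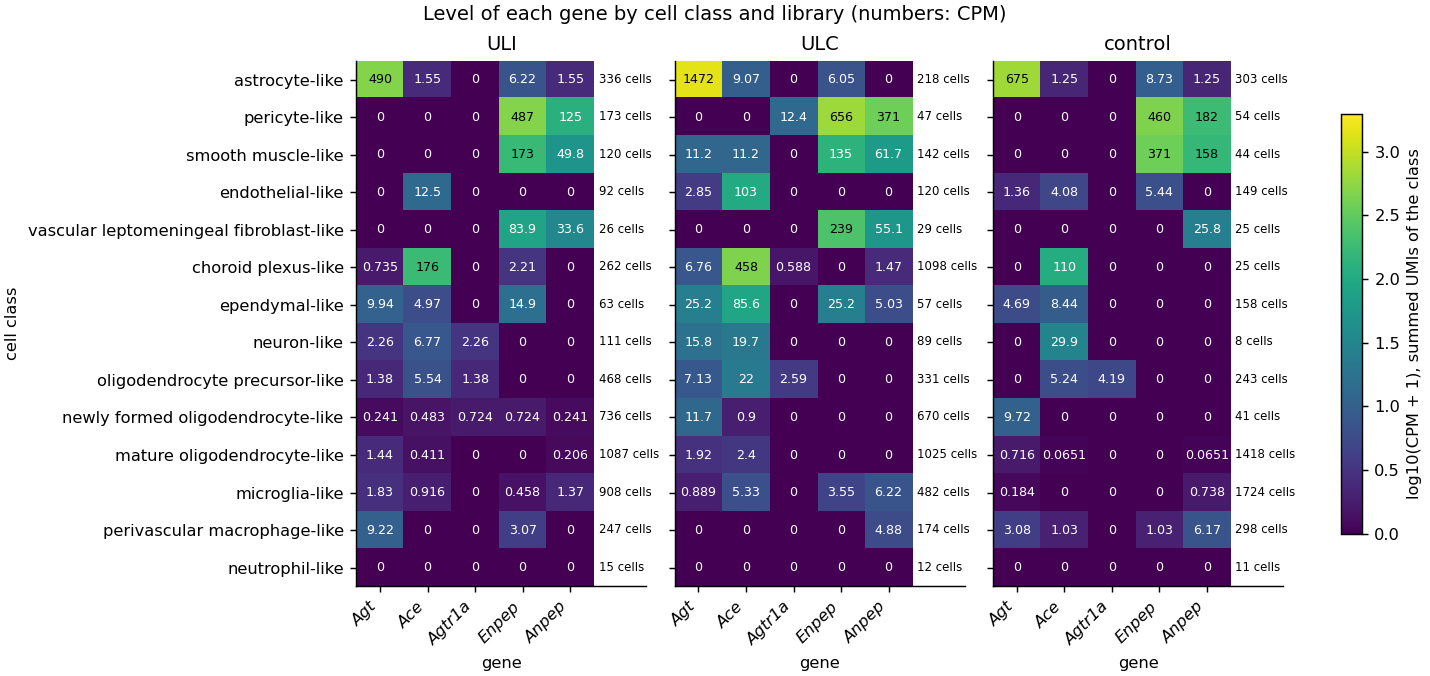
Heat map of the level of each gene (columns) in each marker-defined cell class (rows) of ULI, ULC and control; colour is log10(CPM + 1), numbers are CPM, and the cells per class stand beside each row. Agt is high in astrocyte-like cells (490, 1472 and 675 CPM), Ace in choroid plexus-like cells (176, 458 and 110 CPM), Enpep and Anpep in pericyte-like and smooth muscle-like cells, and Agtr1a is near 0 throughout.

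Between libraries, Agt was highest in the contralateral MVN and lowest in the ipsilateral MVN. The log2 ratio of ULC to control was 1.13 (0.95 to 1.30), a level 2.18-fold above control. In that comparison 9.72% of 6696 genes with at least 20 UMIs were at least 2-fold higher, and 8.09% had a higher ratio than Agt. The log2 ratio of ULI to control was -0.46 (-0.67 to -0.26), under the 2-fold that 18.6% of 7332 genes passed, 7.11% higher and 11.5% lower. ULI was 3.01-fold below ULC, a log2 ratio of -1.59 (-1.797 to -1.38), where 11.3% of 6101 genes were at least 2-fold lower. The median ratio of all genes was -0.17 for ULC to control and -0.01 for ULI to control on the log2 scale. ULI and ULC are each compared with 1 control library, so the 2 comparisons are not independent.

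The share of astrocyte-like cells with an Agt UMI was 34.5% in ULI (116 of 336 cells), 57.3% in ULC (125 of 218) and 53.8% in control (163 of 303). In all other cells it was 0.380% in ULI, 0.971% in ULC and 0.418% in control. Median depth in the class was 1475 UMIs in ULI, 1220.5 in ULC and 2168 in control, so cells were also thinned to 1 depth. At 500 UMIs per cell the share was 19.4% (15.3 to 24.1) in ULI, 37.9% (31.2 to 44.9) in ULC and 22.8% (18.2 to 28.0) in control, with 6, 12 and 1 shallower cells left out. At 1000 UMIs it was 27.4% in ULI, 63.4% in ULC and 37.5% in control, with 99, 87 and 47 cells left out. At equal depth ULC thus stood apart from the others, while the ULI and control intervals overlapped.

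**Figure D2:**
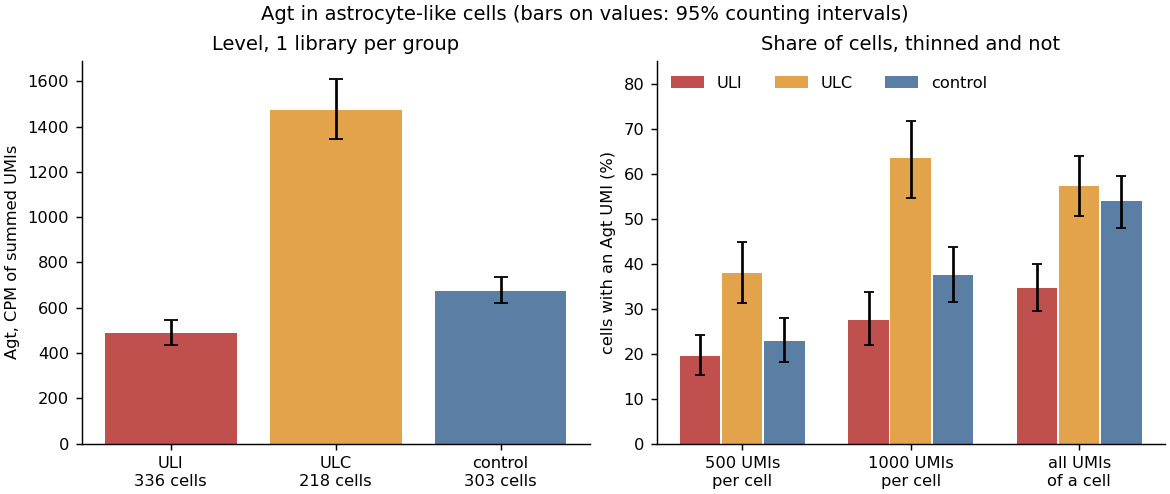
Left, Agt level in astrocyte-like cells of ULI, ULC and control in CPM of summed UMIs; right, percent of these cells with an Agt UMI after thinning to 500 or 1000 UMIs per cell and without thinning. Bars on the values are exact 95% counting intervals. ULC is highest in each set, at 1472 CPM and at 37.9% of cells thinned to 500 UMIs.

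Cells that held Agt usually held more than 1 UMI of it. The median among them was 2 UMIs in ULI, 3 in ULC and 3 in control, and the highest cell had 24, 20 and 20 UMIs in ULI, ULC and control. The 5 richest cells of a library held 18.1% of the class's Agt UMIs in ULI, 17.9% in ULC and 11.3% in control. Without those cells the log2 ratio was -0.59 for ULI to control and 1.05 for ULC to control. A large part of the class carried none, namely 65.5% of the cells in ULI, 42.7% in ULC and 46.2% in control. Cells without Agt were shallower in each library, with a median of 1237.5 UMIs in ULI, 821 in ULC and 1309 in control, against 1936, 1720 and 2799 UMIs in cells with Agt.

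Mitochondrial UMIs made up a median of 23.9% of a cell's total in the astrocyte-like class in ULI, 25.8% in ULC and 17.5% in control. Among cells with at most 20% the log2 ratio of ULC to control was 1.39 (1.15 to 1.63), and among cells above 20% it was 1.33 (1.01 to 1.65). The ratio of ULI to control was -0.29 (-0.55 to -0.03) in cells with at most 20% and -0.30 (-0.66 to 0.06) in those above. In cells under 1000 UMIs, ULI to control was 0.53 (-0.27 to 1.39), while it was -0.52 (-0.85 to -0.20) from 1000 to under 3000 UMIs and -0.55 (-0.85 to -0.25) from 3000 up. ULC was above control at every depth, by 1.08 (0.30 to 1.93) under 1000 UMIs, 1.09 (0.82 to 1.37) from 1000 to under 3000 and 1.54 (1.26 to 1.81) from 3000 up.

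The class's own markers followed Agt in part in ULI and mostly did not in ULC. Against control, 5 of the 8 markers were lower in ULI with intervals below 0, namely Slc6a11 at -0.59, Aqp4 at -0.53, Gja1 at -0.28, Slc4a4 at -0.21 and Fgfr3 at -1.48 on the log2 scale, beside -0.46 for Agt. Gjb6 at -0.07 (-0.17 to 0.03) and Ntsr2 at -0.01 (-0.10 to 0.08) had intervals that included 0 in ULI. Slc1a2 went the other way there and was higher than control, at 0.43 (0.39 to 0.48). In ULC, Slc6a11 (a GABA transporter), Gja1 and Gjb6 (gap junction proteins), Aqp4 (a water channel), Ntsr2 (a neurotensin receptor) and Slc4a4 (a bicarbonate transporter) were below control, with log2 ratios between -1.14 for Aqp4 and -0.28 for Slc4a4. Slc1a2, a glutamate transporter, was at 0.03 (-0.04 to 0.09) in ULC. Fgfr3, a fibroblast growth factor receptor, was the exception, at 0.37 (0.24 to 0.50) in ULC and -1.48 (-1.65 to -1.32) in ULI, the same order of libraries as Agt. Per 1000 UMIs of the 8 astrocyte markers there were 15.8 (14.1 to 17.7) Agt UMIs in ULI, 57.2 (52.2 to 62.5) in ULC and 20.01 (18.4 to 21.8) in control.

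Outside astrocyte-like cells the same quotient was 7.43 (4.94 to 10.7) in ULI, 28.2 (22.4 to 35.1) in ULC and 4.57 (2.96 to 6.75) in control, so the trace of Agt in other cells was also highest in ULC. The log2 ratio of that trace was 2.79 (2.13 to 3.50) for ULC to control, from 81 and 25 UMIs, and subtracting it turned the sign of the ratio in the class, to -1.67. Markers of other cells were found in astrocyte-like cells as well. The 8 choroid plexus markers summed to 414 CPM in ULI, 5601 in ULC and 66.1 in control, with 3, 0 and 2 of them at 0. The 8 mature oligodendrocyte markers summed to 2928 CPM in ULI, 8407 in ULC and 3386 in control. Their part in the Agt ratio was not tested. Choroid plexus-like cells themselves held 6.76 CPM Agt in ULC.

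Ace was chiefly a choroid plexus gene in the 2 libraries with many plexus cells. Choroid plexus-like cells held 240 of 263 Ace UMIs in ULI (91.3%), 1558 of 1677 in ULC (92.9%) and 29 of 58 in control (50%). Over all cells the level was 15.2 CPM in ULI, 134 in ULC and 2.16 in control, in the order of the plexus cell numbers of 262, 1098 and 25. How much plexus was dissected and how much Ace a cell made cannot be told apart at that scale, so the class itself was compared.

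Within the choroid plexus-like class Ace was again highest in ULC. It reached 176 CPM in ULI, 458 CPM in ULC and 110 CPM in control, and was found in 37.0%, 39.9% and 44.0% of the cells of ULI, ULC and control, against 0.417%, 1.799% and 0.415% of all other cells. Median depth in the class was 4049 UMIs in ULI, 754 in ULC and 9577 in control. The log2 ratio was 2.06 (1.53 to 2.64) for ULC to control, 0.68 (0.12 to 1.29) for ULI to control and -1.38 (-1.58 to -1.18) for ULI to ULC. At least 2-fold higher in ULC than in control were 17.8% of 9846 genes in this class, and 19.8% of 10415 genes were at least 2-fold lower in ULI than in ULC. Subtracting the ratio in all other cells, where Ace was at 1.44 CPM in ULI, 13.1 in ULC and 1.09 in control, turned the sign, to -1.52 for ULC to control and 1.801 for ULI to ULC. Thinned to 500 UMIs, 7.26% (4.36 to 11.2) of ULI cells, 19.5% (17.1 to 22.0) of ULC cells and 0 of 25 control cells held Ace, the last of which allows a share of up to 12%.

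The libraries filled different plexus clusters. Cluster 15, led by Htr2c, Sostdc1 and Kcnj13, held 143 ULI, 8 ULC and 21 control cells, with 173, 1303 and 108 CPM Ace. Cluster 20, led by Cidea, Creb3l1 and Igfbp2 and shallow (median 657.5 UMIs), held 118 ULI, 825 ULC and 3 control cells, with 133 CPM in ULI and 446 CPM in ULC. Cluster 26, led by Folr1, Lbp and Slc29a4, held 265 ULC cells at 457 CPM and 1 cell of each other library. Inside cluster 15 the log2 ratio of ULI to control was 0.69 (0.10 to 1.34), and inside cluster 20 that of ULI to ULC was -1.74 (-2.47 to -1.09). ULC thus had near-equal levels in clusters 20 and 26, although cells of cluster 26 were far deeper, with a median of 9212 UMIs. Clusters that are mostly 1 library may be that library rather than a type of cell.

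**Figure D3:**
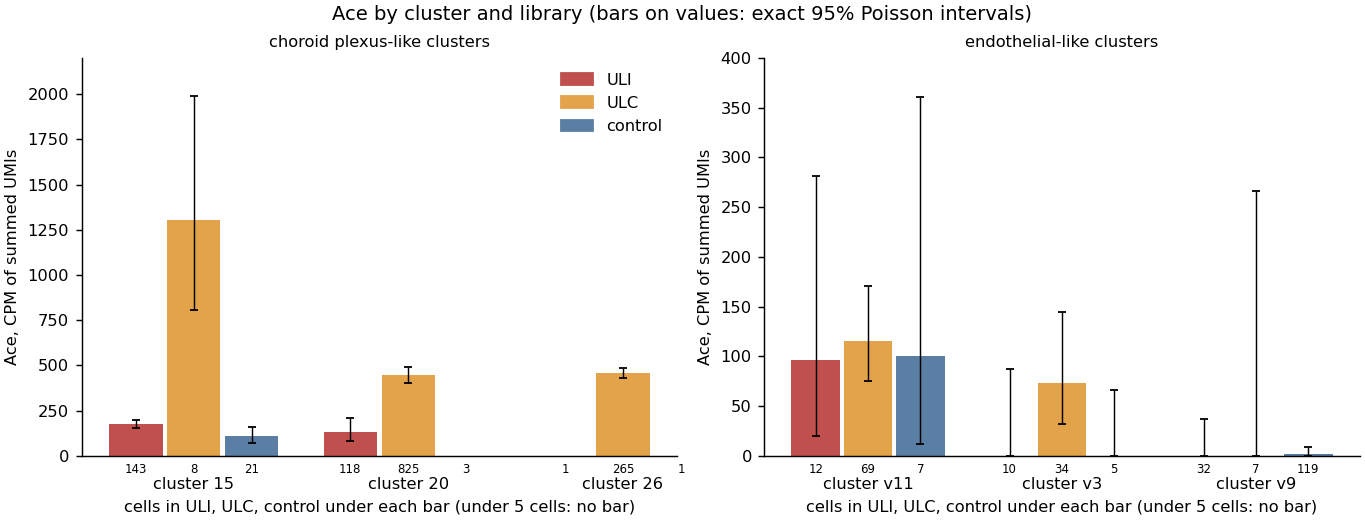
Ace level in CPM of summed UMIs in each choroid plexus-like cluster (left) and in 3 endothelial-like clusters (right) for ULI, ULC and control, with exact 95% Poisson intervals and the number of cells under each bar. In plexus clusters 15 and 20 ULC lies above ULI, while in endothelial-like cluster v11 the libraries lie at 96.3, 115 and 99.9 CPM.

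Ace was also found in endothelial-like cells. Over the class it was at 12.5 CPM in ULI, 103 CPM in ULC and 4.08 CPM in control, from 3, 36 and 3 UMIs. Of the endothelial-like cells, 2.17% in ULI, 11.7% in ULC and 1.34% in control held an Ace UMI. The log2 ratio of ULC to control was 4.66 (2.99 to 6.999), in a class where 11.4% of 6757 genes were at least 2-fold higher, and the same subtraction turned it to -1.35. In ULC, 25 of the 36 UMIs lay in cluster v11, led by Igfbp3, Sema3g and Bmx, genes known from arterial endothelium, and v11 made up 12 of 92 ULI, 69 of 120 ULC and 7 of 149 control cells. Within v11 Ace was at 96.3 CPM in ULI, 115 CPM in ULC and 99.9 CPM in control, from 3, 25 and 2 UMIs, and the log2 ratio of ULC to control was 0.21 (-1.797 to 3.33). In cluster v9, led by Cxcl12 and Foxq1 and holding 119 of the 149 control cells, 1 Ace UMI was found in control and none in ULI or ULC. Cluster v3, led by Lcn2, Ackr1 and Vwf, genes known from venous endothelium, held 8 UMIs from 34 ULC cells and none from its 10 ULI and 5 control cells.

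Plexus markers were also found in endothelial-like cells, at 309 CPM over the 8 markers in ULI, 1270 CPM in ULC and 63.9 CPM in control, with 6, 3 and 4 of them at 0. Per 1000 plexus-marker UMIs there were 40.5 (8.36 to 118) Ace UMIs in endothelial-like cells of ULI, 80.9 (56.7 to 112) in ULC and 63.8 (13.2 to 187) in control, against 1.67, 3.23 and 0.892 in the plexus cells of ULI, ULC and control. Oligodendrocyte precursor-like cells, with 8, 34 and 5 Ace UMIs in ULI, ULC and control, had 18.2, 23.1 and 135 Ace UMIs per 1000 plexus-marker UMIs. In mature oligodendrocyte-like cells, where the quotients of 2.56 in ULI, 4.18 in ULC and 1.76 in control rest on 2, 5 and 1 Ace UMIs, intervals included the plexus values. The part of plexus transcripts in these levels was not tested. Ependymal-like cells held Ace at 4.97 CPM in ULI, 85.6 CPM in ULC and 8.44 CPM in control, from 1, 17 and 9 UMIs, in 1.59%, 12.3% and 3.797% of the cells of ULI, ULC and control. Plexus markers in these cells summed to 2690 CPM in ULI, 10985 in ULC and 24182 in control. Per 1000 marker UMIs there were 1.85 (0.05 to 10.3), 7.79 (4.54 to 12.5) and 0.349 (0.16 to 0.66) Ace UMIs in ULI, ULC and control. In control the marker UMIs numbered 25788, against 32508 in plexus-like cells. Their part in this Ace level was not tested. Cluster 19, a mixed leukocyte cluster led by H2-Aa, Igkc and Trbc2, held Ace at 15.5 CPM in ULI, 185 CPM in ULC and 68.7 CPM in control, from 1, 7 and 7 UMIs in 37, 23 and 39 cells.

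Enpep was chiefly a gene of mural cells, the pericytes and smooth muscle cells of vessel walls. Pericyte-like and smooth muscle-like cells together held 224 of 315 Enpep UMIs in ULI (71.1%), 101 of 125 in ULC (80.8%) and 115 of 167 in control (68.9%). Much of the rest, 70 UMIs in ULI and 40 in control but 0 in ULC, lay in vascular clusters that were given no class, among them v0, led by the smooth muscle genes Tagln, Pln and Myh11. A fibroblast-like cluster, v1, led by Inmt, Tcf21 and Adh1, held 13 Enpep UMIs in its 18 ULC cells and 2 in its 7 ULI cells. Over all fibroblast-like cells of ULC, Enpep was at 239 CPM (127 to 408), above the 135 CPM of smooth muscle-like cells there. In fibroblast-like cells of ULI it was at 83.9 CPM, below the 173 CPM of smooth muscle-like cells, and in those of control it had 0 UMIs.

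In pericyte-like cells Enpep stood at 487 CPM in ULI, 656 CPM in ULC and 460 CPM in control, in 82 of 173 cells (47.4%), 23 of 47 (48.9%) and 32 of 54 (59.3%) of ULI, ULC and control. The log2 ratio was 0.08 (-0.33 to 0.51) for ULI to control, 0.51 (-0.03 to 1.05) for ULC to control and -0.43 (-0.88 to 0.04) for ULI to ULC. All 3 intervals include 0 and the widest reaches 1.05, so a 2-fold difference between ULC and control lies within the counting error. Thinned to 1000 UMIs, 35.9% of ULI, 42.1% of ULC and 35.8% of control pericyte-like cells held an Enpep UMI.

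Anpep was found in the same class, with 46 UMIs in ULI, 30 in ULC and 27 in control. Its level was 125 CPM in ULI, 371 CPM in ULC and 182 CPM in control, in 28 of 173 cells (16.2%), 17 of 47 (36.2%) and 14 of 54 (25.9%) of ULI, ULC and control. The log2 ratio was 1.03 (0.23 to 1.83) for ULC to control, where 10.7% of 2384 genes were at least 2-fold higher, and -1.57 (-2.26 to -0.86) for ULI to ULC, where 10.6% of 4123 genes were at least 2-fold lower. For ULI to control it was -0.54 (-1.26 to 0.20). With called doublets left out and the cells clustered again, the ULC to control ratio was 0.02 (-0.69 to 0.74), and the ULC level was 199 CPM. Subtracting the ratio in all other cells gave -0.15 for ULC to control. Thinned to 1000 UMIs, the share of cells with Anpep was 12.4% (7.64 to 18.7) in ULI, 31.6% (17.5 to 48.7) in ULC and 7.55% (2.09 to 18.2) in control, and the ULC and control intervals overlapped. Choroid plexus markers in pericyte-like cells summed to 242 CPM in ULI, 1424 in ULC and 81.1 in control, with 6, 5 and 6 of 8 at 0, and their part in these ratios was not tested.

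The order of the libraries turned when smooth muscle-like cells were added to pericyte-like cells, and depended on which vascular cells were counted. In pericyte-like and smooth muscle-like cells together Enpep was at 356 CPM in ULI, 231 CPM in ULC and 419 CPM in control, a log2 ratio of -0.86 (-1.26 to -0.46) for ULC to control. Anpep was at 93.9 CPM in ULI, 119 CPM in ULC and 171 CPM in control, with log2 ratios of -0.87 (-1.44 to -0.28) for ULI to control and -0.52 (-1.12 to 0.08) for ULC to control. None of these reached 2-fold. For ULI to control 20.4% of 6081 genes did so, 11.4% higher and 8.98% lower, and for ULC to control 16.7% of 5684 were higher and 9.94% lower. For ULI to ULC the log2 ratio was 0.63 (0.28 to 0.98) for Enpep and -0.34 (-0.90 to 0.23) for Anpep, where 10.4% of 6723 genes were at least 2-fold higher and 14.5% lower. With the vascular clusters given no class added, v0 among them, Enpep was at 305 CPM in ULI, 210 in ULC and 278 in control. Anpep was then at 70.5 CPM in ULI, 108 in ULC and 89.6 in control, the same order of libraries as in pericyte-like cells. The mural cells of ULC were mostly 106 cells of cluster v15 and 31 of v16, which are led by contractile and junction genes such as Des, Gja4 and Myl9 and hold 0 ULI and 3 control cells in all. In v15 Enpep was at 179 CPM and Anpep at 81.2 CPM in ULC. In smooth muscle-like cells alone, Enpep had log2 ratios to control of -1.10 (-1.73 to -0.48) in ULI and -1.46 (-2.07 to -0.85) in ULC. Anpep had -1.66 (-2.79 to -0.58) in ULI and -1.35 (-2.30 to -0.40) in ULC. The share of all genes past 2-fold was not computed for this class. It is not read as a cell type, because 37 of its 44 control cells were cluster v6. That cluster had the pericyte marker Rgs5 and no smooth muscle marker among its 10 leading genes.

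Cluster by cluster, the ULI to control intervals of Enpep included 0 where a ratio was computed. In pericyte-like cluster v8, led by Abcc9 and Kcnj8, the log2 ratio of ULI to control was 0.24 (-0.28 to 0.76) for Enpep and 0.43 (-0.41 to 1.32) for Anpep. In cluster v6 it was -0.65 (-1.31 to 0.01) for Enpep and -1.13 (-2.26 to -0.05) for Anpep. In cluster v2, led by Steap4, Nts and Ogn, Enpep was at 418 CPM in ULI and 417 CPM in control, while Anpep was at 45.5 CPM in 100 ULI cells and 208 CPM in 18 control cells. Of the 47 pericyte-like cells of ULC, 38 made up cluster v14, with 684 CPM Enpep and 422 CPM Anpep. Since v14 held 1 ULI and 2 control cells, cluster and library cannot be told apart there.

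**Figure D4:**
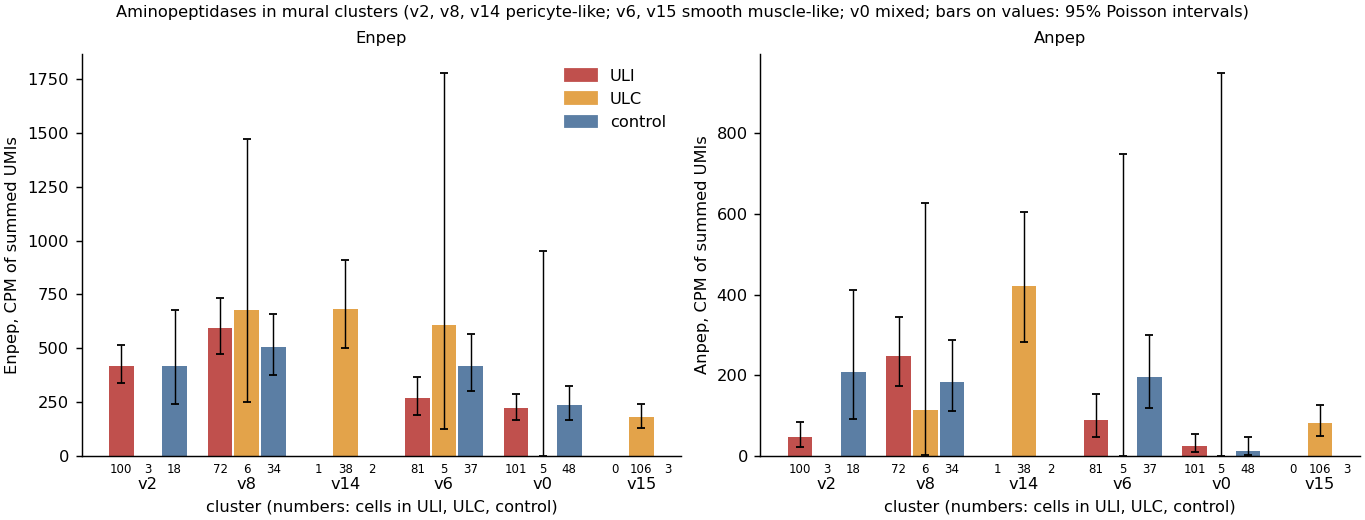
Level in CPM of summed UMIs of Enpep (left) and Anpep (right) in 6 vascular clusters for ULI, ULC and control, with exact 95% Poisson intervals; cell numbers stand under the bars and sets of under 5 cells have no bar. Enpep lies near 420 CPM in both ULI and control of cluster v2, whereas Anpep is at 45.5 CPM in ULI and 208 CPM in control there.

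Enpep and Anpep were found together in some cells. Of the pericyte-like cells with Anpep, 16 of 28 in ULI (57.1%), 11 of 17 in ULC (64.7%) and 8 of 14 in control (57.1%) also held Enpep, which was found in 47.4%, 48.9% and 59.3% of all pericyte-like cells of ULI, ULC and control, so in control the share was no higher than in the class as a whole.

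**Figure D5:**
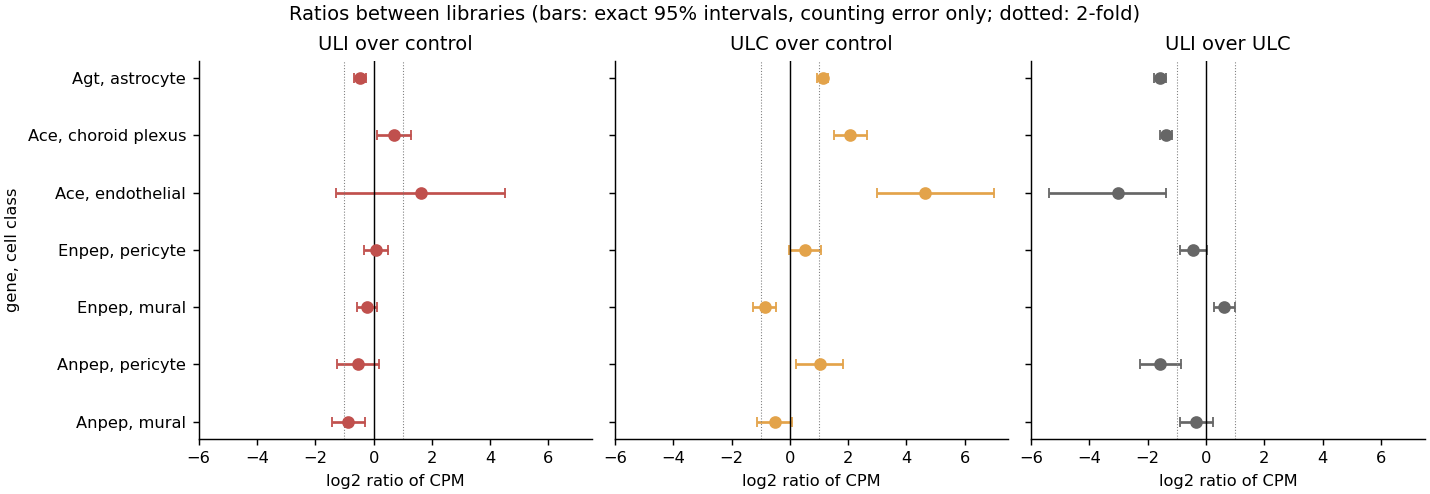
Log2 ratio of CPM between libraries for each gene and class (rows) in the comparisons ULI over control, ULC over control and ULI over ULC, with exact 95% intervals for counting error; mural is pericyte-like and smooth muscle-like cells together. Agt lies at -0.46, 1.13 and -1.59, and Enpep and Anpep lie on other sides of 0 in pericyte-like and in mural cells for ULC over control.

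Agtr1a was hardly captured. It gave 6 UMIs in 4 ULI cells, 7 UMIs in 4 ULC cells and 4 UMIs in 3 control cells. Oligodendrocyte precursor-like cells held 2 of them in ULI, 4 in ULC and all 4 in control, and pericyte-like cells held 1 in ULC. Astrocyte-like cells held 0 UMIs in all 3 libraries, which allows a share of cells with a UMI of up to 0.893% in ULI, 1.38% in ULC and 0.990% in control. Neuron-like cells, of which there were 111 in ULI, 89 in ULC and 8 in control, held 1 UMI in ULI and 0 in ULC and control, so the control cells allow a share of up to 37.5%. No ratio between libraries is given at these counts.

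Other receptors and renin itself were as sparse. Agtr1b, the gene of the AT1b receptor, had 10 UMIs in ULI, 5 in ULC and 0 in control, with all 10 in ULI and 3 of the 5 in ULC in pericyte-like, smooth muscle-like or unassigned vascular cells. Agtr2 (AT2 receptor) had 3 UMIs in ULI, 1 in ULC and 0 in control. Mas1 had 3 UMIs, all in 1 ULC cell, and Ren1, the gene of renin, had 1 UMI in ULC. Bdkrb1, the bradykinin B1 receptor, had 4 UMIs in ULI, 4 in ULC and 17 in control, the last all in ependymal-like cells. Bdkrb2, the bradykinin B2 receptor, had 6 UMIs in ULI, 5 in ULC and 2 in control, and Mrgprd had 0 in ULI, 0 in ULC and 3 in control.

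A list of 31 genes of the angiotensin pathway, the 5 genes included, was set beside them. The table held 29 of them, and 19 had at least 50 UMIs. In astrocyte-like cells 9 passed 20 UMIs in the ULC to control comparison, of which 5 were at least 2-fold higher and 0 lower, against 9.72% of all genes higher and 16.5% lower. The 5 were Agt, the cathepsin genes Ctsa and Ctsd, and the peptidase genes Dpp3 and Nln, and the median log2 ratio was 1.01 for the list and -0.17 for all genes. For ULI to control 0 of 9 were higher and 1, Ctsd, was lower, against 7.11% of all genes higher and 11.5% lower, with a median of -0.23 for the list. For ULI to ULC 0 of 8 were higher and 3 (Agt, Ctsa, Ctsd) lower, against 15.3% of all genes higher and 11.3% lower. The minimum was set on both libraries together, so a gene could pass it through the library where it was high. Ctsa passed it through ULC in both comparisons, so its calls carry no weight. Ctsd was barely past 2-fold for ULC to control. These counts therefore describe the list and are not support for a change of the list as a set.

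In the other classes members of the list lay on both sides of 0. In pericyte-like cells 1 of 6 genes (Anpep) was at least 2-fold higher and 1 (Atp6ap2) lower for ULC to control, where 10.7% of all genes were higher and 14.4% lower. For ULI to control 0 of 7 were called, where 14.7% of all genes were higher and 8.76% lower. Between ULI and ULC, 1 of 7 (Atp6ap2) was higher in ULI and 3 (Agtrap, Anpep, Prep) lower, where 20.8% of all genes were higher and 10.6% lower. In endothelial-like cells 3 of 10 (Ace, Ctsa, Ctsd) were higher and 3 (Dpp3, Prcp, Prep) lower for ULC to control, where 11.4% of all genes were higher and 12.2% lower. For ULI to control 0 of 8 were higher and 1 (Ctsd) lower, where 7.42% of all genes were higher and 16.7% lower. For ULI to ULC 0 of 7 were higher and 3 (Ace, Ctsa, Ctsd) lower, where 9.17% of all genes were higher and 16.0% lower. With 3 Ace UMIs in ULI, 36 in ULC and 3 in control, Ace passed the minimum of 20 UMIs only through ULC in these cells. In choroid plexus-like cells 4 of 15 (Ace, Ctsa, Ctsd, Tmem27) were higher and 2 (Mme, Rnpep) lower for ULC to control, where 17.8% of all genes were higher and 11.5% lower. For ULI to control 1 of 10 was higher (Tmem27) and 1 lower (Mme), where 15.6% of all genes were higher and 11.9% lower. For ULI to ULC 0 of 16 were higher and 6 lower, among them Ace and Agt, where 5.04% of all genes were higher and 19.8% lower. Agt had 1 UMI in ULI and 23 in ULC there, so it passed the minimum only through ULC and its call carries no weight. The minimum was set on both libraries together, so other list genes could also pass it through the library where they were high. The median of the list in ULC to control was 0.35 in pericyte-like, 0.22 in endothelial-like and -0.30 in choroid plexus-like cells.

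Ctsa and Ctsd, which encode lysosomal cathepsins A and D, were higher in ULC outside astrocytes too, with log2 ratios to control of 3.21 (3.07 to 3.35) for Ctsa and 1.004 (0.95 to 1.06) for Ctsd over all other cells. Ctsa stood at 12.4 CPM in ULI, 84.6 in ULC and 9.98 in control in astrocyte-like cells, and at 38.9 CPM in ULI, 561 in ULC and 40.0 in control in microglia-like cells. Ctsd stood at 40.4 CPM in ULI, 175 in ULC and 87.3 in control in astrocyte-like cells, and at 362 CPM in ULI, 1662 in ULC and 750 in control in microglia-like cells. The renin receptor gene Atp6ap2 was lowest in ULC in astrocyte-like cells, at 246 CPM in ULI, 196 in ULC and 364 in control, and so was Atp6ap1, at 169, 118 and 171 CPM in ULI, ULC and control. Agtrap, which encodes a protein that binds the AT1 receptor, was at 37.3 CPM in ULI, 51.4 in ULC and 43.7 in control there.

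The likeness of genes was described over 41 profiles, each the log2(CPM + 1) of 1 cell class of at least 20 cells in 1 library. Enpep and Anpep had a Pearson r of 0.87 with each other and between -0.44 and -0.08 with Ace and Agt. Agt and Ace had an r of 0.18. Among 15875 genes with at least 50 UMIs, the pathway list left out, the closest to Agt were Elovl2 (r = 0.84), Slc6a11, Acvr1c, Bmpr1b and Smyd1. The closest to Ace were Sytl3 (r = 0.70), Ccdc189, F5, Upp1 and Ezr, to Enpep Notch3 (r = 0.90), Pdgfrb, Tbx2, Higd1b and C1s1, and to Anpep Tbx2 (r = 0.93), Pla2r1, Foxd1, C1qtnf7 and Il34. Slc6a11 marked astrocytes and Notch3, Pdgfrb and Higd1b marked pericytes in the class definitions, while Tbx2, a T-box factor, did not enter them. Profiles share libraries, depth and cells of related types, so these values are descriptions across profiles and not replicates.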

How the data were processed

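Single cells of the MVN were captured with UMIs in 3 libraries (ULI, ULC, control), and per the labels and methods the authors processed reads with CASAVA 1.8 and UMI-tools on mm10 and analysed them in Seurat. Aligner, annotation and counting strand were not given in the sources used here, which name 3 different capture platforms. The labels' treatment field names labyrinthectomy for all 3 samples, so control was taken from the source name. The deposited table holds raw UMI counts, with library totals of 17428194 (ULI), 12768983 (ULC) and 27019650 (control). Of 14876 barcodes, 912 with under 200 genes were left out. Cells were clustered in scanpy 1.11.5 (2000 variable genes, 30 components, Leiden resolution 1, renin-angiotensin genes left out), vascular clusters were clustered again, and classes were named by markers. UMIs were summed per class and library. CPM carry exact Poisson intervals, shares Clopper-Pearson intervals and log2 ratios exact binomial intervals. Where a count is 0, the limit given is that of 3 counts. Genes with at least 20 UMIs in both libraries together and a 2-fold difference were called. This procedure was tested on simulated data drawn as independent UMIs, without variation between cells or animals and without copied UMIs. That test therefore cannot show how the intervals and calls behave where these are present. Doublets were left in for the reported values. Automatic calls marked 4 ULI and 1 ULC cells, too few to have worked, so the alternative without doublets took the top 5% of scores there. Alternatives included edgeR 4.0.16 and DESeq2 1.42.0 factors. The text names the 5 genes, the highest genes of the pathway list and its receptors and renin, the 5 genes most alike to each, class markers, and list genes that were called, the last chosen after their values were seen. The genes and lists were chosen with earlier results of these data known. A gene of the pathway list that the rule would name is not reported here.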

Additional observations from a re-analysis of the deposited data

Results flagged for a closer look

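Agt in astrocyte-like cells lay on opposite sides of control in the mice with UL, below it in ULI and above it in ULC, and the log2 ratio of ULI to ULC was -1.59. Anpep in pericyte-like cells did the same, with a log2 ratio of ULI to ULC of -1.57, though its ULI to control interval included 0. Each group was 1 library, so neither difference was tested. Barcodes with under 200 genes, which no comparison used, held Agt at 124 CPM in ULI and 140 CPM in ULC, against 16.7 CPM in control, from 17, 37 and 3 UMIs. In the same barcodes Ace was at 56.9 CPM in ULC from 15 UMIs, with 0 UMIs in ULI and control, and Agtr1a, Enpep and Anpep had 0 UMIs in all 3 libraries.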

How the results depend on the processing

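No paired analysis was possible because each group was 1 library, and for the same reason no library could be left out. Of 48 alternative values for the 3 Agt ratios 41 moved within their interval, 5 moved further and 2 changed sign. Subtracting the ratio in all other cells, where Agt was at trace level, gave -1.27 for ULI to control, -1.67 for ULC to control and 0.40 for ULI to ULC. TMM factors gave 1.31 for ULC to control, and cells over 20% mitochondrial UMIs alone 1.33. At least 500 genes per cell gave -1.81 for ULI to ULC and the mean of CPM per cell -1.31. The same subtraction turned Ace in plexus-like cells to -1.52 for ULC to control and 1.801 for ULI to ULC, Ace in endothelial-like cells to -1.35 and 0.11, and Anpep in pericyte-like cells to -0.15 for ULC to control. Among alternatives chosen after seeing the data, cluster 26 alone gave 0.82 for Ace in ULI to ULC, on 1 ULI cell, and pericyte-like and smooth muscle-like cells together gave -0.52 for Anpep in ULC to control. Adding the vascular clusters given no class put Anpep at 108 CPM in ULC and 89.6 CPM in control, the other order. Without doublets Enpep in ULC to control was -0.31. In astrocyte-like cells 1363 genes differed 2-fold for ULI to control, 521 with a minimum of 50 UMIs and 5465 with none, against 1757, 636 and 6950 for ULC to control and 1620, 552 and 5861 for ULI to ULC, where the minimum itself sets how many genes enter. The cause of the other changes was not tested. Single-cluster ratios with too few UMIs (clusters 20, v3, v7, v9 and v12) were not run. Agtr1a was too sparse for any ratio, and the 25 plexus-like control cells limit every Ace ratio to control.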
